A study of Mus musculus with 11 samples.

Results

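The genes of 10 integrin subunits were described, out of 16894 genes in the table: the alpha chain genes Itgav, Itga4, Itga5, Itga6, Itga9 and Itgal, and the beta chain genes Itgb1, Itgb3, Itgb5 and Itgb7. They are a list of integrin genes without Itgam, Itgb2 and Itgax, chosen with earlier results of these data known. The list is not complete, as the table held 26 Itga and Itgb genes in all. The other 16, Itgae and Itga10 among them, are counted apart below. RNA was sequenced from 3 libraries of primary microglia in cell culture and from 2 kinds of microglia sorted from brain by fluorescence, resident (4 libraries) and transplanted (4 libraries). All 11 libraries carry the genotype label Cx3cr1-GFP, a reporter allele expressed in microglia and some other myeloid cells, and were made by Smart-Seq from 1 ng of RNA. A protocol attached to every library describes 3 cycles of microglial depletion with PLX3397, an inhibitor of the receptor for colony-stimulating factor 1, given in chow at 600 mg/kg before cells were transplanted. Transplanted cells were collected 3 months after transplantation. The labels do not say whether the resident cells came from mice given PLX3397, which cells the transplanted ones came from, how old the mice were, or whether each replicate was its own culture or animal; the tests therefore measure the spread between these libraries only. The comparisons ask how near transplanted microglia come to resident ones, with cultured cells as the other reference.

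Integrins are adhesion receptors made of 1 alpha and 1 beta chain, and the pair decides what the receptor binds. Alpha v joins beta 1, beta 3 or beta 5 to bind vitronectin and related proteins, alpha 5 and alpha 6 join beta 1 to bind fibronectin and laminin, alpha 4 joins beta 1 or beta 7, and alpha L joins beta 2 to bind intercellular adhesion molecules. In the brain, Itgav and Itgb5 are known as genes of mature microglia, while the alpha 4 chain is used to mark macrophages that enter from blood.

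Promoter sequences are given for the 4 members whose RefSeq window lies at the start of the gene's full span, which differ in their pattern: Itgb5 was lower in culture, Itga4 was higher in culture and after transplantation, Itga5 was higher in culture on the CPM scale, and Itgb1 was not called in any comparison. They are RefSeq sequences of GRCm38.p6, read 5′ to 3′ on the gene's strand, 250 bases before to 50 after the start. The positions are chr16:33829415-33829714 (+ strand) for Itgb5, chr2:79255176-79255475 (+ strand) for Itga4, chr15:103366742-103367041 (- strand) for Itga5 and chr8:128685404-128685703 (+ strand) for Itgb1. Capitals mark GAGGAA or its reverse complement, the core bound by PU.1, a myeloid transcription factor.
Itgb5: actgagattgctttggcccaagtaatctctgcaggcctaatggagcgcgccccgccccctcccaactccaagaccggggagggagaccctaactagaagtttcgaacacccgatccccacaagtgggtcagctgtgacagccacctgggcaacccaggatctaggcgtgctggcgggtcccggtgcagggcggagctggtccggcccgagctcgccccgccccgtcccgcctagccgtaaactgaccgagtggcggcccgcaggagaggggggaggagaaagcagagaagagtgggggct
Itga4: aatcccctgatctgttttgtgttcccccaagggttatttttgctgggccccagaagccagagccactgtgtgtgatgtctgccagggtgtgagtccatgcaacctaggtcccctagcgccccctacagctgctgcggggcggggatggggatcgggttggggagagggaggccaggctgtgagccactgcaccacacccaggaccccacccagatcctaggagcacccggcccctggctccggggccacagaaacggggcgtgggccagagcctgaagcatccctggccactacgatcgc
Itga5: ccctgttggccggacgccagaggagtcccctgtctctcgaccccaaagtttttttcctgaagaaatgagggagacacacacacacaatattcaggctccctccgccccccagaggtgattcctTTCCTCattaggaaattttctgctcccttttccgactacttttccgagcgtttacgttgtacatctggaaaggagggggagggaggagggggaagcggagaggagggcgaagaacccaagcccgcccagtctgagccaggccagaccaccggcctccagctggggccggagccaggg
Itgb1: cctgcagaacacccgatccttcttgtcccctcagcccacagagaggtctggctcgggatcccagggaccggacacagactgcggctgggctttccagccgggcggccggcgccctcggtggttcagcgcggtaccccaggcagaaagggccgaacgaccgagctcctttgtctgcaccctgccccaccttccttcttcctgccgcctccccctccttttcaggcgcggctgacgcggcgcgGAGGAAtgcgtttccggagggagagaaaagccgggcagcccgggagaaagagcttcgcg
The sequence GAGGAA, searched on both strands, was found in the windows of Itga5 and Itgb1 and not in those of Itgb5 and Itga4. It was found in 4 of the 7 members that had a promoter entry, the others being Itgav and Itgb7, and in 28.3% of 32851 promoters of that length. The AP-1 sequence TGANTCA, also searched on both strands, was found in 1 of the 7 members, Itga9, and in 7.81% of promoters. In RefSeq the genes outside these windows lie at chr7:127296139-127335137 (Itgal), chr2:71786886-71858427 (Itga6), chr11:104608000-104670476 (Itgb3), chr2:83722303-83806917 (Itgav), chr9:118606709-118901003 (Itga9) and chr15:102215994-102233405 (Itgb7). The windows of Itgav, Itga9 and Itgb7 lie at a start inside the gene's full span.

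Libraries held 26705034 to 28219696 expected counts in cultured, 19055655 to 19965631 in resident and 18692721 to 19761208 in transplanted cells. The 11 microglial marker genes, among them Tmem119, P2ry12 and Sall1, were all detected in sorted cells, where their summed level was 55380 to 62419 CPM (counts scaled to library size) in resident libraries and 49317 to 59999 in transplanted ones. In cultured libraries the sum was 3666 to 6161 CPM and Siglech averaged 0.740 CPM. Between transplanted and resident cells 1 of the 11 was called higher and 2 lower. Monocyte markers summed to 1070 to 1704 CPM in cultured, 20.6 to 41.2 in resident against 12.01 to 25.1 in transplanted libraries. Their part in the results on cultured cells was not tested. Among transplanted libraries, 1 and 2 lay nearest each other (root mean square difference 0.389 in log2 CPM), then 3 and 4 (0.439), against 0.465 to 0.520 for the other pairs. Resident libraries differed by 0.372 to 0.537, a range that holds all these values. Cultured library 2 lay 0.786 and 0.791 from cultured libraries 1 and 3, which were 0.550 apart. What sets libraries apart within a group is not in the labels.

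Cultured microglia differed from resident ones in 8 of the 10 integrin genes: Itgav, Itgb3, Itgb5 and Itga9 were lower, and Itga4, Itga5, Itgal and Itgb7 were higher. Calls are at an adjusted p under 0.05 (edgeR's quasi-likelihood test, Benjamini-Hochberg adjustment over the whole table), and single genes below carry that p. In this comparison 75.1% of the 12406 genes tested were called, 37.9% higher and 37.2% lower, so a share of 8 in 10 members lies near the background. The groups did not overlap in 8 of the 10 members, beside 75.7% of all genes. The members' median log2 fold change was 0.11, beside -0.02 for all genes tested. These folds are on the CPM scale. The TPM scale divides by transcript length and by the library's total, and was used without TMM factors. There the median of all genes moved to -0.95 and the share of calls that were higher went from 50.5% to 20.3%. How much of this shift is length and how much is scaling was not tested.

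Transplanted microglia differed from resident ones in 4 of the 10 genes, Itgal, Itga4, Itga6 and Itga5, all higher. Of the 11929 genes tested, 13% were called, 7.17% higher and 5.86% lower. The groups did not overlap in 3 members, Itgal, Itga4 and Itga6, beside 19.7% of all genes. The members' median log2 fold change was 0.28, beside 0.02 for all genes. Transplanted cells differed from cultured ones in 8 members, 5 higher and 3 lower, beside 72.4% of 12284 genes called, 36.9% higher and 35.5% lower. Here the groups did not overlap in 8 members, beside 73.3% of genes, and the median was 0.27 beside 0.05. On the TPM scale the median of all genes was 0.98 and the share of calls that were higher went from 51.0% to 80.8%. The comparisons share libraries and are given side by side.

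**Figure D1:**
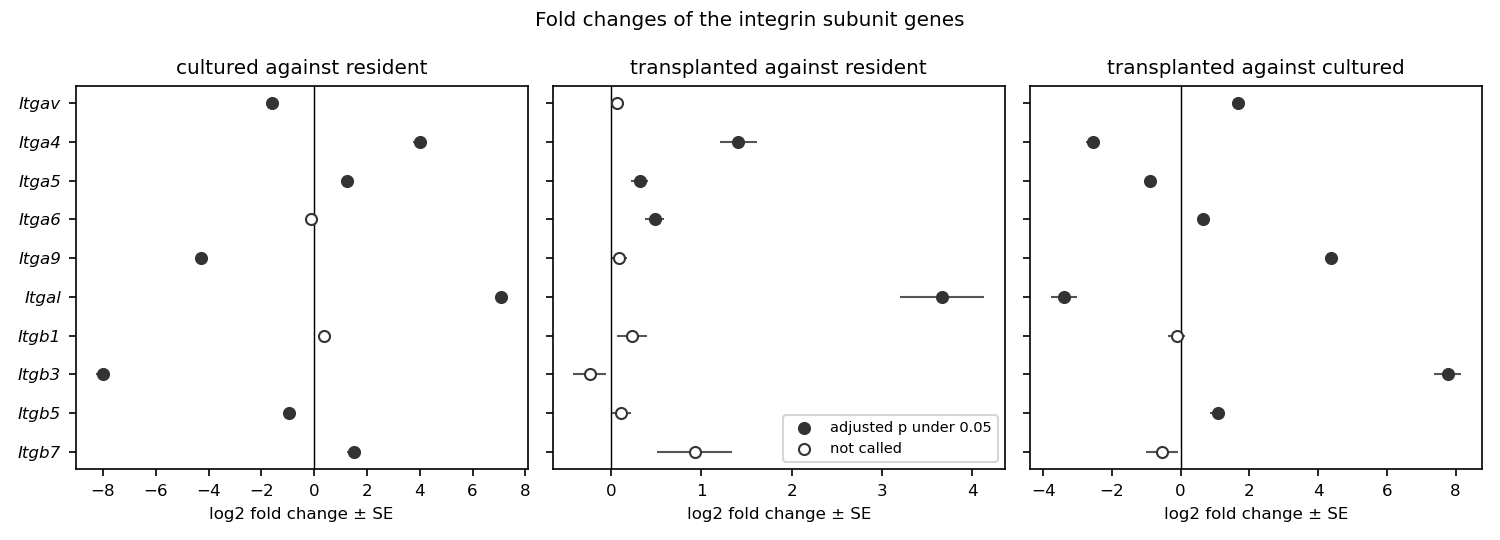
Log2 fold change (x axis, edgeR, bars ± SE) of each integrin subunit gene (y axis) in the 3 comparisons; filled points are called at an adjusted p under 0.05 and the x scales differ between panels. Against resident cells, cultured cells show folds from -7.99 to 7.08, while transplanted cells show Itgal at 3.67 and Itga4 at 1.41 with the other 8 genes between -0.24 and 0.93.

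Per length, Itgb5 was the most abundant member in every group. It averaged 90.4 ± 27.6 TPM (SD, n = 3) in cultured, 363 ± 9.62 (n = 4) in resident and 395 ± 61.4 (n = 4) in transplanted libraries. The beta chain gene Itgb2, which is not a member, stood higher, at 297 TPM in cultured, 602 in resident and 719 in transplanted libraries. In resident cells the order after it was Itgb1 (96.1 TPM), Itgav (61.3), Itga6 (58.0), Itgb3 (35.7), Itga5 (20.0), Itga9 (19.0), Itga4 (1.07), Itgb7 (1.06) and Itgal (0.275). Neighbours whose ranges overlapped were Itgav and Itga6, Itga5 and Itga9, and Itga4 and Itgb7. In transplanted cells Itga6 (82.3 TPM) stood before Itgav (65.2), with no overlap between their ranges, and Itgal (3.57) and Itga4 (2.89) stood before Itgb7 (2.08), with overlap. In cultured cells Itgb1 (58.2 TPM), Itga6 (24.6), Itga5 (22.0) and Itgal (17.6) followed Itgb5, and Itga9 (0.523) and Itgb3 (0.0667) were last; the ranges of Itgb5 and Itgb1 overlapped there, as did those of Itga6 and Itga5 and of Itga5 and Itgal. The members' summed TPM was 212 to 244 in cultured, 632 to 679 in resident and 696 to 762 in transplanted cells, 3 ranges that do not overlap. On the CPM scale, which lacks the shift of all genes seen in TPM, their sum was 815 to 931 in cultured, 1068 to 1176 in resident and 1241 to 1336 in transplanted cells, nearer together and again without overlap.

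**Figure D2:**
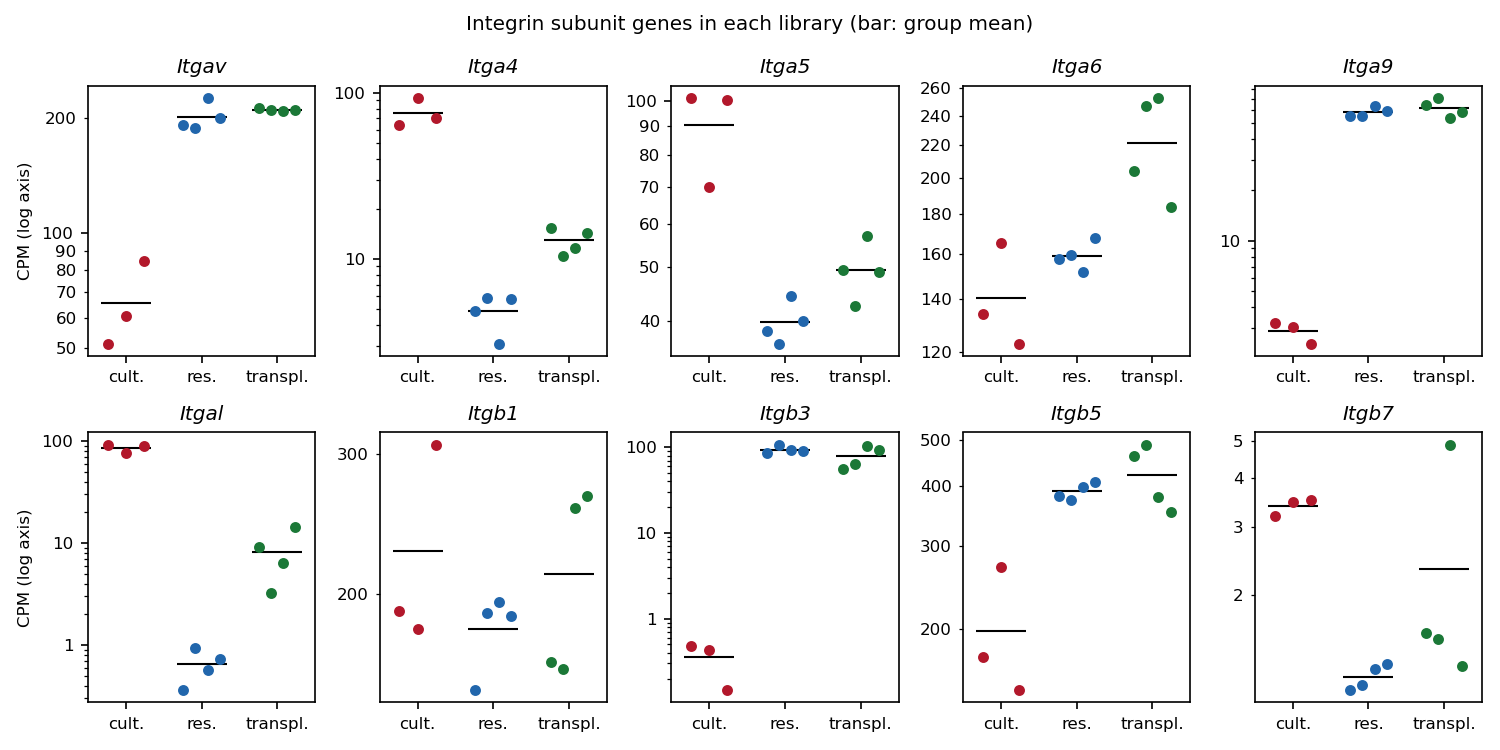
Level of each member in CPM (log y axis, a scale for each gene) in every library, by group (cult., cultured; res., resident; transpl., transplanted); points are libraries in replicate order and bars are group means. Itga9, Itgb3 and Itgav are low in the 3 cultured libraries, Itgal and Itga4 are high there, and the 4 transplanted libraries lie between the other groups for Itgal and Itga4.

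The alpha v chain is the common partner of beta 3 and beta 5. Itgav stood at 51.3, 60.5 and 84.3 CPM in cultured, 193, 189, 226 and 200 in resident, and 212, 210, 209 and 211 in transplanted libraries. Every cultured library was below every sorted library, and the transplanted range lay within the resident range. Itgav was 3.01-fold lower in cultured than in resident cells (log2 fold change -1.59 ± 0.17 SE, edgeR adjusted p = 2.86e-05) and 3.19-fold higher in transplanted than in cultured cells (edgeR adjusted p = 1.29e-05). The difference between transplanted and resident cells was 0.07 ± 0.07 on the log2 scale (edgeR adjusted p = 0.580). Its spread among transplanted libraries was the smallest of the 10 members, with a coefficient of variation of 0.691%.

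Itgb5, the beta chain of the vitronectin receptor alpha v beta 5, stood at 175, 270 and 149 CPM in cultured, 381, 373, 398 and 408 in resident, and 464, 489, 380 and 353 in transplanted libraries. All cultured libraries were lower, and the transplanted libraries overlapped the resident ones, with libraries 1 and 2 above the resident range and library 4 below it. The log2 fold change was -0.94 ± 0.19 for cultured against resident (edgeR adjusted p = 0.00166), 1.07 ± 0.22 for transplanted against cultured (adjusted p = 0.00135) and 0.12 ± 0.10 for transplanted against resident (adjusted p = 0.518).

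Itgb3, the beta chain that platelets and osteoclasts also use, was nearly absent in culture. It stood at 0.477, 0.436 and 0.146 CPM in cultured libraries, from 10, 9 and 3 expected counts, against 84.9, 107, 93.4 and 90.4 CPM in resident and 56.0, 63.7, 104 and 94.1 in transplanted libraries. The sorted groups overlapped, with transplanted libraries 1 and 2 below every resident library. The fitted log2 fold change was -7.99 ± 0.26 for cultured against resident cells (edgeR adjusted p = 1.95e-08), a value that rests on 22 counts in culture, and 7.77 ± 0.40 for transplanted against cultured cells (adjusted p = 1.36e-07). Transplanted against resident cells it was -0.24 ± 0.18 (adjusted p = 0.427). Platelet and megakaryocyte markers summed to 38.3 to 50.8 CPM in resident, 21.9 to 33.2 in transplanted and 5.18 to 7.60 in cultured libraries, with 2 of 6 genes at a mean of at least 1 CPM in each group. In sorted cells the sum is nearly all Gp9, at a mean of 41.2 CPM in resident and 25.8 in transplanted cells, while Ppbp, at 4.46 CPM in culture, was at 0 counts in both sorted groups and Itga2b at a mean of at most 0.256 CPM. Their part in the Itgb3 values was not tested.

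The balance between these beta chains was computed per length. Itgb5 held 99.9% ± 0.0356 (SD, n = 3) of the summed TPM of Itgb3 and Itgb5 in cultured, 91.0% ± 1.04 (n = 4) in resident and 92.5% ± 3.07 (n = 4) in transplanted libraries. The share was 95.3%, 95.0%, 89.6% and 90.04% in transplanted libraries 1 to 4, and 89.5% to 91.8% in resident ones. The cultured share lay above both sorted groups (difference from resident 8.89 percentage points, 2-sided exact permutation p = 0.0571, the smallest that 3 against 4 libraries allow). The difference between transplanted and resident cells was 1.45 points (exact permutation p = 0.371). Over the 9 tests of shares, no adjusted p was below 0.0857.

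Itgb1 encodes the beta chain shared by alpha 4, alpha 5, alpha 6 and alpha 9. It stood at 191, 180 and 308 CPM in cultured, 151, 189, 195 and 188 in resident, and 164, 161, 257 and 266 in transplanted libraries. All 3 groups overlapped, with cultured library 3 and transplanted libraries 3 and 4 standing high. The log2 fold change was 0.36 ± 0.19 for cultured against resident (edgeR adjusted p = 0.114), -0.11 ± 0.25 for transplanted against cultured (adjusted p = 0.701) and 0.23 ± 0.17 for transplanted against resident (adjusted p = 0.409). On the TPM scale the first 2 turn direction, to -0.76 (limma adjusted p = 0.00676) and 0.98 (limma adjusted p = 0.00603), beside medians of -0.95 and 0.98 for all genes there. Without cultured library 3 the first is 0.05 (edgeR adjusted p = 0.765), and without cultured library 2 it is called, at 0.47 (edgeR adjusted p = 0.0413). With a length trend removed it is called at 0.65 (limma adjusted p = 0.00935).

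Itga4, the alpha chain of the receptor for Vcam1 and fibronectin, was highest in culture and intermediate after transplantation. It stood at 63.6, 92.5 and 70.4 CPM in cultured, 4.84, 5.79, 3.09 and 5.76 in resident, and 15.2, 10.5, 11.6 and 14.4 in transplanted libraries. No group overlapped another. Itga4 was 15.9-fold higher in cultured than in resident cells (log2 fold change 3.99 ± 0.23, edgeR adjusted p = 4.73e-07), 2.66-fold higher in transplanted than in resident cells (1.41 ± 0.20, adjusted p = 0.00125) and 5.90-fold lower in transplanted than in cultured cells (-2.56 ± 0.19, adjusted p = 1.35e-06). The exons of Cerkl on the opposite strand cover 8.04% of its exonic bases, and whether counting used strand is not given in the sources used here. Cerkl itself stood at no more than 0.290 CPM in any library. Its part in the Itga4 values was not tested.

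Itgal, the alpha chain of the leukocyte receptor for Icam1, showed the largest fold of the members between transplanted and resident cells. It stood at 92.1, 76.9 and 90.2 CPM in cultured, 0.362, 0.934, 0.570 and 0.732 in resident, and 9.10, 3.27, 6.34 and 14.4 in transplanted libraries. The 3 groups did not overlap, and the transplanted libraries spread over 4.40-fold. Itgal was 12.7-fold higher in transplanted than in resident cells (log2 fold change 3.67 ± 0.47, edgeR adjusted p = 0.000607), 135-fold higher in cultured than in resident cells (7.08 ± 0.22, adjusted p = 1.62e-08) and 10.5-fold lower in transplanted than in cultured cells (-3.40 ± 0.38, adjusted p = 2.69e-05). The values against resident cells rest on 56 resident counts. As log2(TPM + 1) they were 1.73 for transplanted and 3.86 for cultured cells, and both were called by limma. With a pseudocount of 0.1 they were 3.14 and 5.59. In bulk libraries such as these, fewer cells that carry a transcript and less of it per cell cannot be told apart.

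Levels of other cell types' genes are given beside Itgal and Itga4, which lymphocytes and monocytes also express. Lymphocyte markers summed to 18.3 to 27.7 CPM in resident against 1.35 to 2.02 in transplanted libraries, nearly all of it Cd79b in resident libraries (17.6 to 26.3 CPM). The defining genes Cd3e and Ms4a1 totalled 0 and 2 counts over the resident libraries and 1 count each over the transplanted ones. Of 10 monocyte genes, 2 were called higher in transplanted cells, Ms4a4c and Vcan, and 2 lower, Ccr2 and F13a1; Ly6c2 totalled 5 counts over the resident and 4 over the transplanted libraries. Clec12a, known from monocytes and macrophages, stood at 5.32, 0.240, 3.40 and 9.15 CPM in transplanted libraries 1 to 4, and Ms4a7, known from brain macrophages other than microglia, at 14.9, 1.59, 7.36 and 24.3. Resident libraries held 1.22 to 2.34 CPM of Clec12a and 2.63 to 5.79 of Ms4a7. Both genes were picked from their lists after their values were seen, and other genes of those lists ran the other way. Neither gene was called between transplanted and resident cells (edgeR adjusted p = 0.230 for Clec12a and 0.0954 for Ms4a7). Markers of border-associated macrophages summed to 47.0 to 96.3 CPM in resident, 22.0 to 49.1 in transplanted and 1855 to 2599 in cultured libraries, and 6 of 7 were called lower in transplanted than in resident cells. The cultured sum is nearly all Pf4 and Mrc1: against resident cells 3 of the 7 were called higher in culture and 3 lower, Cd163, Lyve1 and Cd209f, the last at 0 counts. The part of such cells in the Itgal result was not tested.

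Itga6, the alpha chain of a laminin receptor, was higher after transplantation than in either other group. It stood at 134, 165 and 123 CPM in cultured, 158, 160, 152 and 167 in resident, and 204, 247, 253 and 183 in transplanted libraries. The transplanted libraries lay above all others, and the cultured and resident ranges overlapped. The log2 fold change was 0.48 ± 0.10 for transplanted against resident (1.40-fold, edgeR adjusted p = 0.0110), 0.64 ± 0.16 for transplanted against cultured (adjusted p = 0.00477) and -0.14 ± 0.12 for cultured against resident (adjusted p = 0.308). Without cultured library 2 the third is -0.31 and called (edgeR adjusted p = 0.00503). With a length trend removed the second is 0.23 and not called (limma adjusted p = 0.165). The third then turns to 0.24 (limma adjusted p = 0.0515). On the TPM scale the third is -1.21 and called (limma adjusted p = 3.92e-06), beside the median of -0.95 for all genes there. Endothelial markers, whose cells also express Itga6, summed to 9.30 to 14.4 CPM in resident against 17.6 to 22.7 in transplanted libraries; Kdr, Flt1 and Cdh5 were called higher, and Cldn5, Tek and Slco1a4 totalled 5, 3 and 3 counts over the transplanted libraries. Their part was not tested.

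Itga5, the alpha chain of the main fibronectin receptor, stood at 101, 69.9 and 100.3 CPM in cultured, 38.3, 36.3, 44.3 and 39.9 in resident, and 49.4, 42.6, 57.1 and 49.0 in transplanted libraries. Cultured libraries were highest, and transplanted library 2 lay within the resident range. Itga5 was 2.34-fold higher in cultured than in resident cells (log2 fold change 1.22 ± 0.15, edgeR adjusted p = 5.36e-05), but on the TPM scale the difference was 0.11 (limma adjusted p = 0.561). It was lower in transplanted than in cultured cells by edgeR (-0.88 ± 0.16, adjusted p = 0.000642), and on the TPM scale this turns to 0.22. Transplanted against resident cells gave 0.32 ± 0.09 with an edgeR adjusted p of 0.0499, and 14 of 17 alternatives lost the call, with the highest adjusted p at 0.207.

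Itga9, the alpha chain of a receptor for Vcam1 and tenascin C, was low in culture. It stood at 3.25, 3.05 and 2.44 CPM in cultured, 54.9, 54.8, 62.9 and 59.0 in resident, and 64.2, 70.2, 53.4 and 58.0 in transplanted libraries. The sorted groups overlapped, and the cultured libraries lay below both. Itga9 was 19.3-fold lower in cultured than in resident cells (log2 fold change -4.27 ± 0.15, edgeR adjusted p = 2.43e-08) and 20.9-fold higher in transplanted than in cultured cells (4.38 ± 0.18, adjusted p = 4.14e-08). Transplanted and resident cells differed by 0.09 ± 0.09 (adjusted p = 0.560).

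Itgb7, the beta chain that joins alpha 4 in gut-homing lymphocytes, was low in all groups. It stood at 3.20, 3.48 and 3.51 CPM in cultured, 1.13, 1.17, 1.28 and 1.33 in resident, and 1.59, 1.54, 4.89 and 1.31 in transplanted libraries. The cultured libraries lay above the resident ones, and among transplanted libraries library 3 alone lay above the cultured range. Itgb7 was 2.83-fold higher in cultured than in resident cells (log2 fold change 1.502 ± 0.24, edgeR adjusted p = 0.000393); on the TPM scale it was 0.23 (limma adjusted p = 0.0580). Transplanted against resident cells gave 0.93 ± 0.41 (edgeR adjusted p = 0.177) and 0.26 without transplanted library 3 (adjusted p = 0.547). Transplanted against cultured cells gave -0.56 ± 0.47 (edgeR adjusted p = 0.304), which turns to 0.24 on the TPM scale and is called at -1.21 without transplanted library 3 (edgeR adjusted p = 0.00857).

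The makeup of the alpha chain RNA was set out per length. Itgav held 14.7% ± 3.44 (SD, n = 3) of the summed TPM of Itgav, Itga4, Itga5, Itga6 and Itga9 in cultured, 38.4% ± 1.64 (n = 4) in resident and 33.2% ± 2.30 (n = 4) in transplanted libraries. The transplanted share lay below the resident one without overlap (difference -5.22 percentage points, 2-sided exact permutation p = 0.0286, the smallest that 4 against 4 libraries allow, and 0.0857 adjusted over 9 tests). With Itgal added to the sum, Itgal held 21.3% in cultured, 0.173% in resident and 1.82% in transplanted libraries, and Itga6 held 30.2%, 36.4% and 40.9%. Itgb7 held 2.501%, 1.09% and 1.72% of the summed TPM of Itgb1 and Itgb7 in the 3 groups (transplanted against resident, exact permutation p = 0.171).

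**Figure D3:**
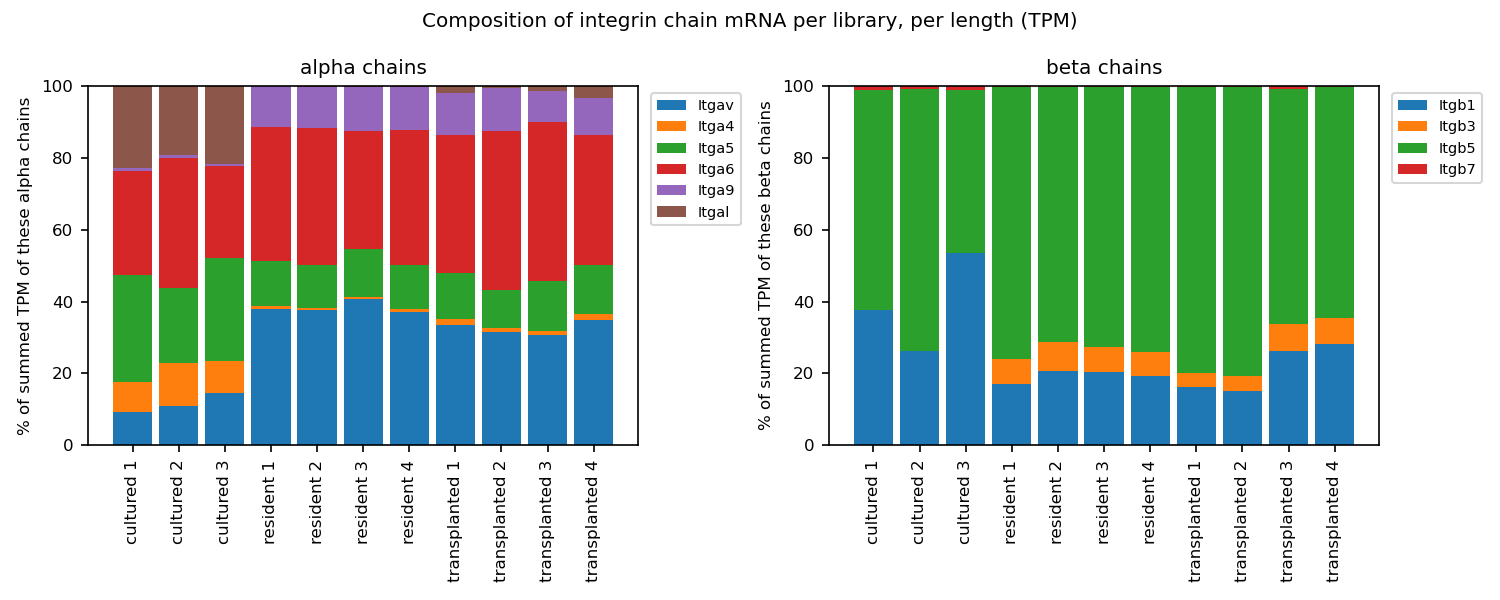
Share (y axis, % of summed TPM) of each member among the 6 alpha chain genes (left) and the 4 beta chain genes (right) in each of the 11 libraries (x axis). Itgal and Itga4 fill a larger share of the cultured bars than of the others. Itgb5 is the largest of these 4 beta chain genes in the sorted libraries. Itgb2, which is not a member, is not shown. Transplanted libraries 3 and 4 have more Itgb1 than 1 and 2.

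Genes whose pattern over the 11 libraries was most like a member's were found as the smallest root mean square difference of centred log2 CPM. Nearest to Itgal were Apoe (0.32), a lipid carrier gene, and Cyp4f18 (0.39). Nearest to Itga4 were Bcl2a1a (0.30), a survival gene, and Tmem205 (0.30). Nearest to Itga6 were Rbm28 (0.13) and Vps54 (0.13). Apoe averaged 85142 CPM in cultured, 539 in resident and 5598 in transplanted libraries.

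Of the other integrin subunit genes, 16 were in the table and 5 were tested between cultured and resident cells, where 1 was called higher and 3 lower, near the 75.1% of all genes called. Itgax, the alpha chain of complement receptor 4, rose (1.52 ± 0.24, edgeR adjusted p = 0.000327), but on the TPM scale it was 0.30 and not called. Itgae (-5.17 ± 0.60) and Itgam (-0.85 ± 0.22) fell. Itga10 gave -1.12 ± 0.43 (edgeR adjusted p = 0.0395), and 8 of 13 alternatives lost the call, with the highest adjusted p at 0.135. Between transplanted and resident cells, 2 of 5 were called, beside 13% of all genes, both higher: Itgax (1.30 ± 0.25, edgeR adjusted p = 0.00687) and Itgb2, the partner of Itgal (0.23 ± 0.06, adjusted p = 0.0342, lost when any 1 library was left out). Itgb2 averaged 885 ± 30.4 CPM in transplanted, 755 ± 32.2 in resident and 769 ± 259 in cultured libraries. Between transplanted and cultured cells, Itgae and Itgam were called higher of 6 tested, beside 72.4% of all genes called. The lists' medians were -0.85, 0.01 and 0.46 for these comparisons in turn.

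Of the genes for activation and adaptor proteins that link integrins to actin, 31 were tested between cultured and resident cells, and 13 were called higher and 12 lower, with a median log2 fold change of -0.02. This lies near the background of 75.1% of all genes called and a median of -0.02. Parvb, encoding beta-parvin (3.02 ± 0.28), Fermt2, encoding kindlin-2 (2.24 ± 0.70), and the Src-family kinase gene Fgr (2.15 ± 0.25) were the 3 highest, and the tensin genes Tns3 (-2.62 ± 0.10) and Tns1 (-2.22 ± 0.16) and the talin gene Tln2 (-1.60 ± 0.13) the 3 lowest. The Fermt2 value rests on 61 counts in cultured and 18 in resident libraries, and 2 of its 13 alternatives lost the call. Between transplanted and resident cells 2 of 30 were called, beside 13% of all genes, both kinase genes and both higher: Fgr (1.02 ± 0.25, edgeR adjusted p = 0.0246) and Src (0.73 ± 0.14, adjusted p = 0.00725). The median was 0.02, beside 0.02 for all genes. Fgr was no longer called in 6 of its alternatives. Between transplanted and cultured cells 12 of 31 were called higher, led by Tns3, Tns1 and Fyb, and 13 lower, led by Fermt2, Parvb and Zyx, beside 72.4% of all genes called, with a median of 0.14. Fermt2 totalled 1 count over the transplanted libraries.

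The genes of integrin ligands were counted in the same way. Of 16 tested between cultured and resident cells, all were called, 11 higher and 5 lower, beside 75.1% of all genes (37.9% higher, 37.2% lower). Their median log2 fold change was 1.90, beside -0.02 for all genes. Fn1, which encodes fibronectin, the ligand of alpha 5 beta 1, averaged 11155 ± 2282 CPM in cultured, 1.72 ± 1.29 in resident and 6.06 ± 1.77 in transplanted libraries. Spp1, which encodes osteopontin, a ligand of alpha v, alpha 4 and alpha 9 integrins, averaged 22594 ± 249, 7.15 ± 4.98 and 17.0 ± 5.11 CPM. Thbs1 was the third highest (8.16 ± 0.28). Vcam1, the ligand of alpha 4 and alpha 9, ran the other way, at 0.291 ± 0.224 CPM in cultured, 15.3 ± 5.35 in resident and 50.3 ± 20.5 in transplanted libraries, and Postn (-3.60 ± 0.29) and F11r (-3.54 ± 0.14) were the next lowest.

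Between transplanted and resident cells 5 of 15 ligand genes were called higher and 2 lower, beside 7.17% and 5.86% of all genes, with a median of 0.35 beside 0.02 for all genes. The higher ones were Emilin1, an extracellular matrix gene (2.14 ± 0.16, edgeR adjusted p = 2.02e-05), Fn1 (1.82 ± 0.51, adjusted p = 0.0414), Vcam1 (1.72 ± 0.30, adjusted p = 0.00438), Tgfbi (0.88 ± 0.11) and Icam1 (0.52 ± 0.08), the ligand of the receptor that holds Itgal. Lamb2, a laminin chain gene (-1.55 ± 0.22, adjusted p = 0.00134), and Postn, the gene for periostin (-1.08 ± 0.20, adjusted p = 0.00544), were lower. Spp1 gave 1.25 ± 0.46 and was not called (edgeR adjusted p = 0.105). The Fn1 call was lost when any of 5 single libraries was left out. Between transplanted and cultured cells all 17 ligand genes tested were called, 5 higher and 12 lower, beside 72.4% of all genes, with a median of -1.36 beside 0.05.

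**Figure D4:**
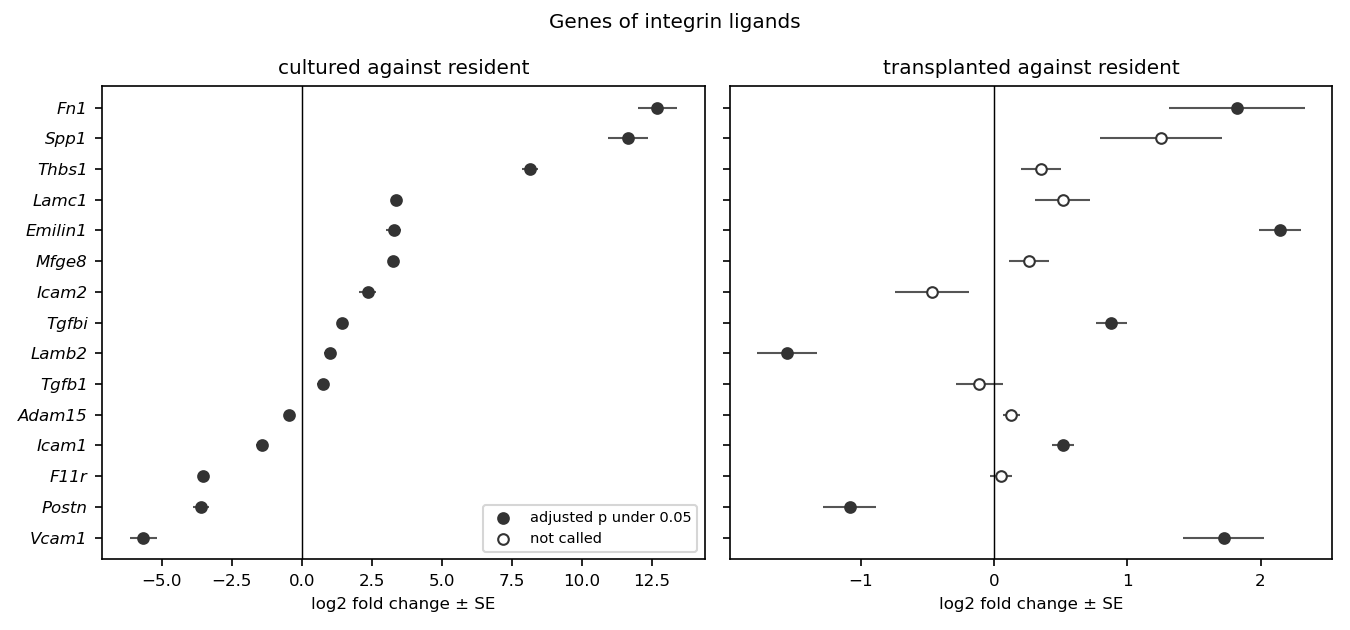
Log2 fold change (x axis, edgeR, bars ± SE, scales differ) of the 15 ligand genes (y axis) tested in both comparisons with resident cells, ordered by the cultured one; filled points are called. Fn1, Spp1 and Thbs1 exceed 8 in cultured cells, while Emilin1 at 2.14 is the highest in transplanted cells.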

How the data were processed

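The authors deposited, for each of 11 libraries, expected counts (estimated reads per gene), TPM and FPKM, per the file headers; FPKM was not used in tests. HISAT, Bowtie2 and GRCm38.p6 are named in the submitters' processing notes, without roles; for the counter, its strand setting and the annotation, nothing is given in the sources used here. The deposited expected counts were rounded. In R 4.3.3, edgeR 4.0.16 was fitted to 2 groups at a time (TMM scaling, expression filter, quasi-likelihood test), with calls at 0.05 after Benjamini-Hochberg adjustment over every gene tested. CPM uses TMM scaling over all libraries, and the deposited TPM, made by the authors per length, was used for levels between genes. Shares were tested by exact permutation with scipy 1.17.1. The alternatives were DESeq2 1.42.0, RLE factors, no filter, 1 fit of all libraries, log2(TPM + 1 or 0.1) with limma 3.58.1, a length trend, a replicate block and leaving out each library. The length trend was removed from log2 CPM, which was then tested with limma. The edgeR test was checked on simulated counts in which few genes changed, equally in both directions. That check does not cover a difference that reaches most genes, as between cultured and sorted cells.

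Members and lists were chosen with earlier results of these data known. The rule for named genes took all 10 members, in each pathway list and comparison the 3 highest and 3 lowest genes called, and the 2 genes most like each of the 3 members with the lowest adjusted p between transplanted and resident cells. Marker genes, and ligand genes outside the rule (Spp1, Tgfbi and Icam1 between transplanted and resident cells), were named after their values were seen. Symbols matched RefSeq for 16845 of 16894 genes. Of the lists, neutrophil, astrocyte, oligodendrocyte, neuron and mural cell markers are reported at the end of the closing section. Libraries carry no molecular identifiers.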

Additional observations from a re-analysis of the deposited data

Results flagged for a closer look

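Itgb7 in transplanted library 3, at 4.89 CPM, stood far from the other 3 transplanted libraries, which lay between 1.31 and 1.59 CPM. The gap to the nearest of them was 0.920 of the group's range. It was 1 of 26 groups of 4 libraries examined, and chance alone flags about 1 in 20 such groups. The cause was not tested.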

How the results depend on the processing

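Of the members' log2 fold changes, recomputed under each alternative, 449 kept their direction and their side of the threshold, 20 lost and 7 gained a call, and 14 turned direction. Of the counts and shares 400 stayed and 27 moved. A count stayed if it was within 1.5-fold of the reported one. A difference in shares stayed if it kept its direction, whatever its size. On the TPM scale (limma, log2(TPM + 1)), whose median over all genes was shifted as given above, members called higher between cultured and resident cells went from 4 to 2 (2 also with a pseudocount of 0.1). There Itgb1 turned to -0.76 (-0.77 with 0.1, -0.76 with no filter) between cultured and resident cells. Between transplanted and cultured cells Itgb1 turned to 0.98 (0.99 and 0.98), Itga5 to 0.22 (0.23 and 0.22) and Itgb7 to 0.24 (0.31 and 0.24). With a length trend removed, Itga6 between cultured and resident cells turned to 0.24. Leaving out 1 library at a time gave Itgb1 -0.24 to 0.18 between transplanted and cultured cells, the last without cultured library 3. All genes called between transplanted and resident cells went from 1554 to 912 with all libraries in 1 fit. Other integrin subunits called there went from 2 to 1 with no filter, with all libraries in 1 fit, with a replicate block, with a length trend removed and without any 1 library (1 to 1). Adaptor genes called there went from 2 to 1 on the TPM scale with no filter, and lay between 1 and 2 with 1 library left out (1 without resident library 2 or 4, or transplanted library 3 or 4). Other integrin subunits called between transplanted and cultured cells went from 2 to 5 (DESeq2), 6 (no filter), 4 (TPM), 4 (TPM with 0.1), 6 (TPM, no filter) and 1 (length trend), and lay between 2 and 4 with 1 library left out (4 without cultured library 2). The causes were not tested.

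Replicate numbers did not pair the libraries. Each library's deviations of log2 CPM from its group mean were taken over genes at a mean of at least 1 CPM. Between same-numbered libraries these deviations correlated at -0.0357 to 0.0788 over the 3 comparisons. With a replicate block, the members called stayed at 8, 4 and 8, while all genes called were 8455, 1299 and 8155, against 9316, 1554 and 8891 without it. The limits are 3 or 4 libraries a group, low counts of Itgb3 in culture and of Itgal and Itgb7 in resident cells, and the difference in culture that reaches most genes, where a direction on the CPM scale is relative to the other genes.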

Other observations

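Markers of other cell types not given above were as follows. Neutrophil markers, in effect Csf3r in sorted cells, summed to 84.4 to 154 CPM in cultured, 736 to 829 in resident and, in transplanted libraries, 946 to 1159. In the same order of groups, astrocyte markers summed to 40.1 to 81.0, 209 to 265 and 142 to 269 CPM (in sorted cells nearly all Slc1a3, with Gfap, Aqp4 and Gjb6 each at a mean under 1 CPM, and in cultured cells Aldoc and Aldh1l1), oligodendrocyte markers to 85.2 to 97.4, 82.9 to 90.9 and 87.0 to 96.1 CPM, and neuron markers to 1.05 to 2.29, 2.22 to 4.02 and 1.59 to 3.89 CPM. Mural cell and fibroblast markers summed to 1.57 to 2.23, 0.467 to 0.640 and 0.419 to 0.871 CPM.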
